A study of Mus musculus with 10 samples.

Results

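The endothelin system of the mouse optic nerve head was examined in tissue from eyes whose intraocular pressure (IOP) had been raised, and in tissue from the fellow eyes. Its members were the ligand genes Edn1, Edn2 and Edn3, the receptor genes Ednra and Ednrb, and Ece1, which encodes the endothelin converting enzyme. They were found as all probe sets whose gene symbol in the platform annotation was exactly one of these names. This gave 8 of the 22626 non-control probe sets, covering 5 of the 6 genes: 1 each for Edn1 and Edn2, and 2 each for Edn3, Ednrb and Ece1. For Ednra there were 0 probe sets with that symbol alone, and this receptor was not analysed here.

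The high IOP group consisted of optic nerve heads from right eyes of C57Bl/6 male mice aged 6 to 8 weeks. A saline-filled micropipette in the anterior chamber had held these eyes at 30 mmHg for 1 h, and the nerve heads were collected 3 days after that hour. The control group consisted of nerve heads from the left eyes, which had not been operated on, so side and cannulation went with pressure and cannot be told apart from it. Each array carried amplified RNA from a pool of 2 nerve heads, 10 mice gave 5 arrays per group, and the labels call the pools biological replicates.

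Endothelins are small secreted peptides cut from long precursors, first by furin-like proteases and then by the metalloprotease ECE1. They act on G protein-coupled receptors: EDNRA, on smooth muscle, drives vasoconstriction, and EDNRB, on endothelium, astrocytes and cells of neural crest origin, mediates vessel relaxation, peptide clearance and glial responses. In the eye, endothelins are known for constricting the vessels of the optic nerve head and for effects on astrocytes and axonal transport, which is why they have been studied in glaucoma.

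Promoter windows of Edn1 and Edn3 are shown as background: Gata2, a known regulator of endothelin-1, was measured, and the Edn3 signal followed that of pigment genes. The array values do not test how either promoter works. The sequences are from RefSeq (GRCm38.p6, plus strand) and cover 250 bases before and 50 bases from the annotated start site. Capitals mark matches, on either strand, to the motif TTATCT, which GATA factors bind, or to the motif ACGTG, the core of a hypoxia response element.
Edn1, chr13:42301226-42301525: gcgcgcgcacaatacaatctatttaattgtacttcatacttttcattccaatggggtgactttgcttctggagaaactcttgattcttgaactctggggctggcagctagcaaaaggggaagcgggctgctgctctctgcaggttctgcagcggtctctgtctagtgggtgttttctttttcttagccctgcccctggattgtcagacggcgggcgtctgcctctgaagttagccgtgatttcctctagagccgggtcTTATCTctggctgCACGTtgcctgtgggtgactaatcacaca
Edn3, chr2:174760369-174760668: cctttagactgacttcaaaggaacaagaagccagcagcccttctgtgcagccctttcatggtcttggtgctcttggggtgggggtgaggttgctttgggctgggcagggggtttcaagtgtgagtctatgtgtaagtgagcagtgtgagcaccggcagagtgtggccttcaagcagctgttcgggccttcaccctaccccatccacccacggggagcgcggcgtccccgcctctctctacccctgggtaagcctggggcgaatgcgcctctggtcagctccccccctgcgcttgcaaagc
In the Edn1 window the first match lay at bases 9 to 14 and the other at bases 22 to 26. Bases were counted from 1 at the annotated start site, and where transcription starts in this tissue was not tested. Of 32851 promoter windows of this length in the same table, 11.2% held TTATCT and 19.6% held ACGTG. The Edn3 window held none of these letters, nor CACGTG or CATGTG, the E box and M box cores bound by MITF in pigment cells, which were in 7.15% and 14.2% of all windows; CACGTG contains ACGTG. The AP-1 consensus TGANTCA, searched as an exact string, was in neither window and in 7.81% of all. Variants of that string were not searched, so an AP-1 site that departs from it would be missed. A match is a string of letters and was not tested as a binding site.

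The deposited values were probe set intensities on a linear scale. Array medians lay between 414 and 475, the lowest single value was 0.69 and no detection calls were used here, so it is unknown which dim probe sets exceeded background. Of 12 marker genes of astrocytes, the main glia of this tissue, 11 were above every array median on every array, with Gfap between 10644 and 12631, while the probe set of the glutamate transporter gene Slc1a2 read 124 to 269. Genes of tissue next to the nerve head were present too and varied widely: the summed signal of 13 photoreceptor genes ran from 2498 to 10911 in high IOP and from 1872 to 10724 in control pools. In such mixed tissue, fewer cells of a type and less RNA per cell cannot be told apart. High IOP replicate 1 stood apart, with a mean correlation of 0.974 with the other arrays, against 0.986 or more for each of the rest. Its Gapdh control signal was 2.07 times higher at the 3' end of the transcript than at the 5' end, where the others had 1.53 to 1.73. The same ratio for actin, 2.10, was within the 1.65 to 2.13 of the others.

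No endothelin gene passed the test. Across all 22626 probe sets, 0 had a limma adjusted p under 0.05 (0.0% called) and 1004 had an unadjusted p under 0.05 (4.44%), 2.33% higher and 2.11% lower in high IOP. Of the 8 endothelin probe sets, 0 passed either threshold, and the lowest adjusted p was 0.837, which was also the lowest of the whole table. On the scale log2(signal + 16), which understates changes of dim genes, 4 of the 8 differences were above 0 and 4 below. High IOP and control arrays overlapped in all 8 probe sets, where 0.663% of all probe sets had groups that did not overlap. Changes beyond 2-fold, up or down, fell outside the 95% confidence interval for 8 of 8 (95.6% of all probe sets) and those beyond 1.5-fold for 5 of 8 (75.8%).

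**Figure D1:**
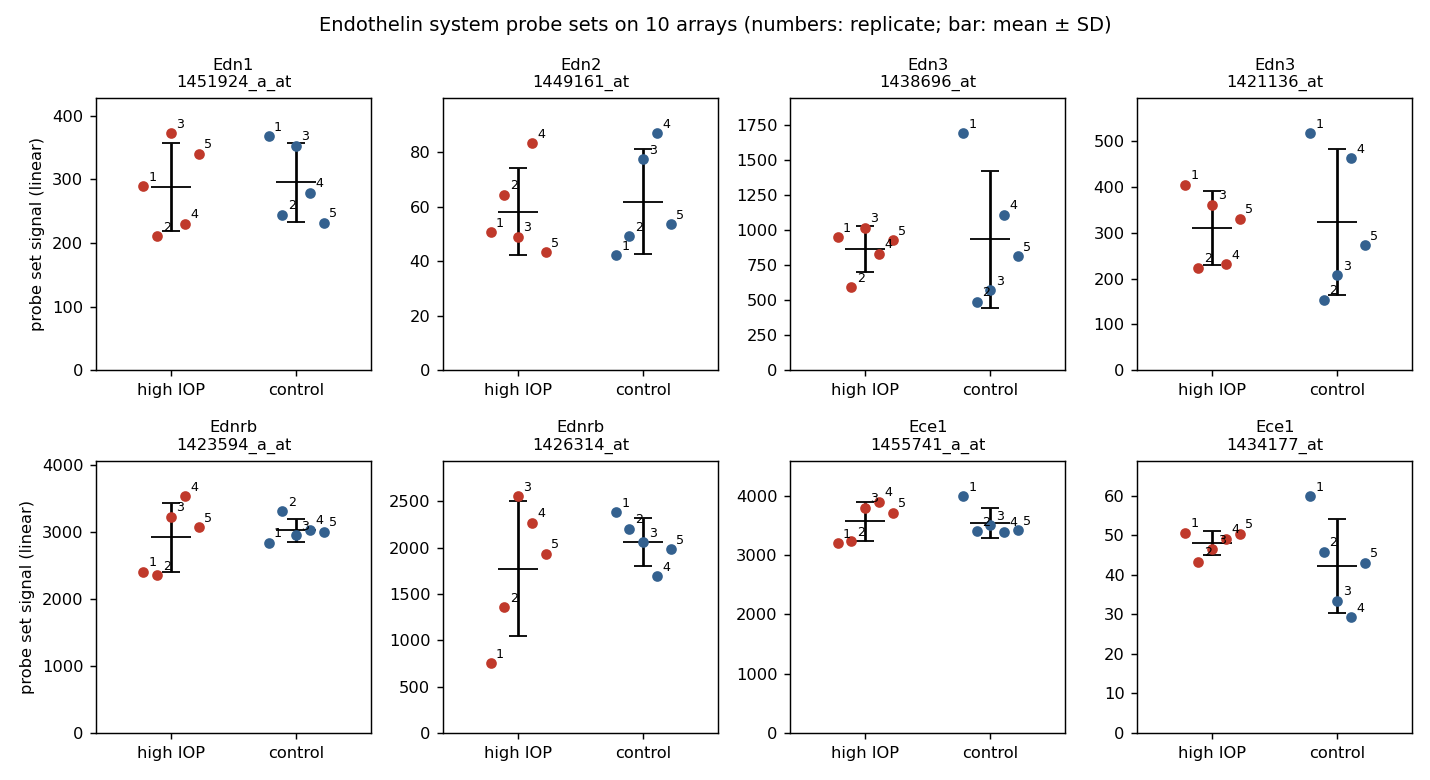
Signal of the 8 endothelin system probe sets on a linear scale, 5 high IOP arrays (red, left) and 5 control arrays (blue, right) per panel, with the replicate number beside each point and bars for mean ± SD. The groups overlapped in every panel, and for the brighter Edn3 probe set the control arrays spread from 488 to 1687.

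Edn1 encodes endothelin-1, the main vasoconstrictor peptide of endothelial cells. Its signal in high IOP replicates 1 to 5 was 289, 211, 372, 230.3 and 340.3, against 368, 244, 353, 279 and 232 in control replicates 1 to 5. Both groups held bright and dim pools, with the highest and the lowest array both in the high IOP group. The means were 288 ± 69.2 in high IOP and 295 ± 62.2 in control (SD, n = 5 each). The log2 difference was -0.04 with a 95% confidence interval from -0.44 to 0.36 (limma adjusted p = 0.970). The interval thus reached 1.28-fold higher and 1.35-fold lower.

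Edn2 encodes endothelin-2, a close relative of endothelin-1 known in the mouse retina for its induction in photoreceptors after injury. Its probe set was dim, and the 16 added before the log weighs on it. The signal was 50.7, 64.5, 49.0, 83.4 and 43.4 in high IOP replicates 1 to 5, against 42.2, 49.2, 77.4, 86.9 and 53.6 in control replicates 1 to 5. High IOP replicate 4 and control replicates 3 and 4 were the bright arrays, so neither group was the higher one. The log2 difference was -0.06 (interval -0.47 to 0.35, limma adjusted p = 0.954), which left room for a rise of up to 1.28-fold on this scale.

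Edn3 encodes endothelin-3, the ligand that, through EDNRB, supports melanocyte and enteric neuron precursors. Its brighter probe set, 1438696_at, had signals of 947, 591, 1015, 829 and 925 in high IOP replicates 1 to 5, against 1687, 488, 569, 1108 and 811 in control replicates 1 to 5. The control arrays took both extremes, a span of 3.46-fold. The dimmer one, 1421136_at, read 405, 224, 361, 232 and 330.1 in high IOP replicates 1 to 5, and 517, 154, 207, 462 and 273 in control replicates 1 to 5, with the same control replicates 1 and 2 at its ends. Both probe sets ordered the arrays almost alike (Spearman's rho of 0.976 and Pearson's r of 0.939 over the 10 arrays, as a description). Their SDs over the arrays were 0.52 and 0.53 on the log2 scale, against a median of 0.22 over all probe sets, and lay above those of 94.7% and 95.2% of them. The log2 differences were 0.01 (interval -0.66 to 0.67, limma adjusted p = 0.997) and 0.05 (interval -0.64 to 0.73, limma adjusted p = 0.983). In linear means high IOP was the lower group for both, 862 against 933 in control and 310.4 against 322 in control, so the sign depended on the scale. The differences rested on single arrays: the brighter probe set stood at 0.25 without control replicate 1 and at -0.18 without control replicate 2, and the dimmer one at 0.24 and -0.17.

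**Figure D2:**
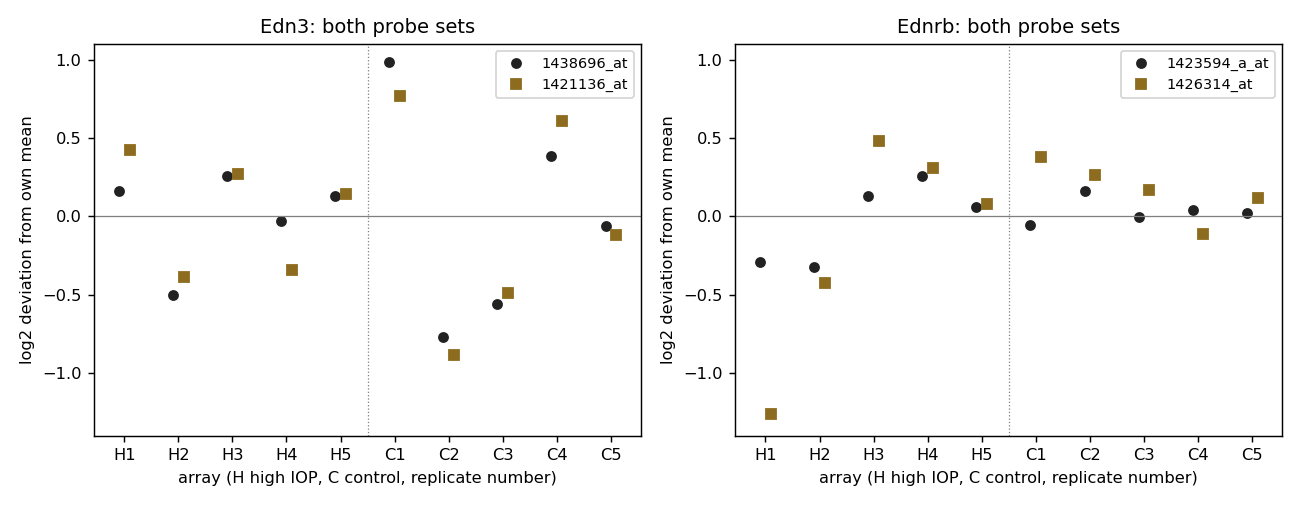
Deviation of each array from the probe set's own mean on the scale log2(signal + 16), for both probe sets of Edn3 (left) and of Ednrb (right), high IOP arrays first and control arrays after them. The Edn3 probe sets moved together over the arrays (r = 0.939), while high IOP replicate 1 was far lower on Ednrb probe set 1426314_at than on 1423594_a_at.

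Ednrb encodes the endothelin B receptor, which astrocytes of the optic nerve express. Probe set 1423594_a_at read 2406, 2355, 3224, 3530.3 and 3069.6 in high IOP replicates 1 to 5, against 2838, 3303, 2944, 3029.9 and 2998 in control replicates 1 to 5. High IOP replicates 1 and 2 were below every control array and replicate 4 above every one, and the SD was 517 in high IOP and 173 in control (n = 5 each). Its log2 difference was -0.07 (interval -0.34 to 0.20, limma adjusted p = 0.908). The other probe set, 1426314_at, read 752, 1356, 2556, 2271 and 1936 in high IOP replicates 1 to 5, against 2381, 2203, 2058, 1694 and 1982 in control replicates 1 to 5. The same high IOP replicates 1 and 2 were its lowest, and its log2 difference, -0.33 (interval -0.96 to 0.30, limma adjusted p = 0.837), was the largest of the 8. Without high IOP replicate 1 it stood at -0.05. On that array the score of oligodendrocyte genes (mean log2 deviation of 8 genes from their own means) was -0.89, against -0.17 to 0.22 on the other high IOP arrays and -0.17 to 0.43 on control arrays, and the Gapdh ratio, though not that of actin, was the highest. The part of these differences in the Ednrb value was not tested.

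Ece1 encodes the protease that releases the active peptides. Probe set 1455741_a_at was the steadiest of the 8, with 3199, 3239, 3800.3, 3901 and 3717 in high IOP replicates 1 to 5, against 3995, 3406, 3502, 3395 and 3416 in control replicates 1 to 5. It spanned 1.25-fold over the 10 arrays, and control replicate 1 was its highest array. The log2 difference was 0.01 with an interval from -0.19 to 0.21 (limma adjusted p = 0.988), the narrowest of the 8. The dim probe set 1434177_at ran from 43.4 to 50.7 in high IOP and from 29.3 to 60.0 in control arrays. Its log2 difference was 0.16 (interval -0.13 to 0.44, limma adjusted p = 0.837), and without control replicate 1, its highest array, it stood at 0.26 (unadjusted p = 0.0396, adjusted p = 0.949). The 2 Ece1 probe sets did not order the arrays closely alike (Spearman's rho of 0.382 over 10 arrays).

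**Figure D3:**
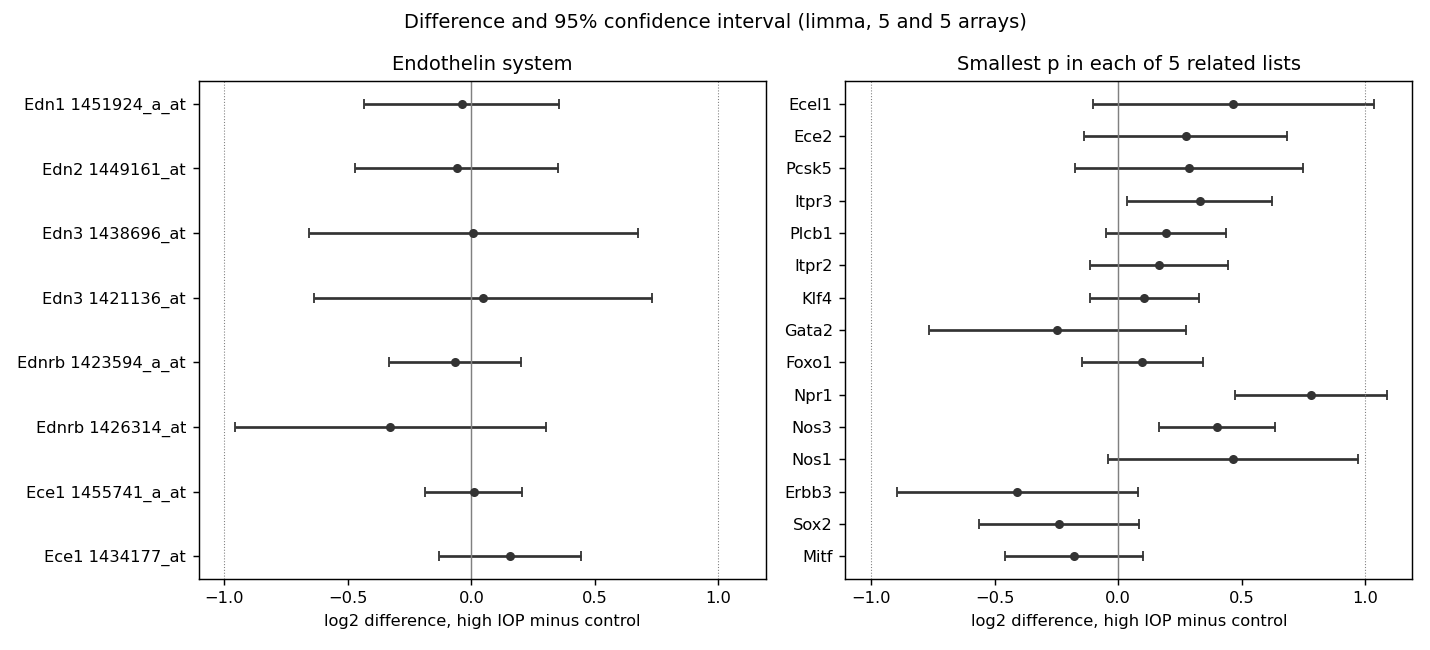
Log2 difference, high IOP minus control, with its 95% confidence interval (limma, 5 arrays each), for the 8 endothelin system probe sets (left) and for 15 genes, the 3 lowest in p from each of 5 related lists (right); dotted lines mark 2-fold. All 8 endothelin intervals crossed 0, and among the related genes only the intervals of Itpr3, Npr1 and Nos3 left 0 out.

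Genes around the endothelin system were taken from 5 lists, with 1 probe set per gene, and in each list 0 genes passed the limma test over all probe sets in either direction. Over the 12393 genes the median log2 difference was -0.01, 47.3% were above 0 and 3.82% had an unadjusted p under 0.05. Of 11 genes of precursor processing and related metalloproteases, 6 were above 0 and 5 below (median 0.04). Ece2, the second endothelin converting enzyme, averaged 903 ± 341 in high IOP and 713 ± 51.3 in control (SD, n = 5 each), a log2 difference of 0.27 that stood at 0.07 without high IOP replicate 1, and its other probe set stood at -0.01. Ecel1, an ECE-like protease of neurons, had a value of 0.47 (0.23 without that array), and the convertase Pcsk5 0.29 (0.15 without it), with other probe sets of Pcsk5 from -0.36 to 0.05.

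Downstream of the receptors, 26 of 31 listed genes were measured, 8 above 0 and 18 below (median -0.03). The inositol trisphosphate receptor gene Itpr3, which encodes a calcium release channel, averaged 455 ± 78.0 in high IOP and 358 ± 52.3 in control (SD, n = 5 each). Its log2 difference of 0.33 had an interval from 0.03 to 0.62 (unadjusted p = 0.0318, limma adjusted p = 0.837), and it was the only gene of this list at an unadjusted p under 0.05. Leaving out 1 array put that limma p at 0.0627 to 0.0761 for 5 of the 10 arrays. Itpr2, a sister channel, stood at 0.17 (0.08 without high IOP replicate 1) and Plcb1, a phospholipase C activated by Gq, at 0.19, with other probe sets of both on either side of 0. Of 14 measured transcription factors known to act on endothelin genes, 6 were above 0 and 8 below (median -0.03). Gata2, the GATA factor that drives endothelin-1 in human and bovine endothelial cells, averaged 966 ± 333 in high IOP and 1108 ± 232 in control (SD, n = 5 each), with a log2 difference of -0.25 (interval -0.77 to 0.27), or -0.05 without high IOP replicate 1, and its other probe set stood at -0.04. The factors Klf4 and Foxo1 stood at 0.11 and 0.10, at 0.04 without control replicate 2 and at 0.02 without high IOP replicate 1, the other probe set of Klf4 stood at 0.03, and those of Foxo1 ran from -0.32 to 0.27.

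Among 19 measured genes of other vasoactive systems, 12 were above 0 and 7 below (median 0.03), and 2 had an unadjusted p under 0.05. Over all genes 3.82% did, and of the other related lists only that of receptor signalling held such a gene, Itpr3. Among lists of cell type markers, 3 of 13 endothelial, 1 of 12 mural and 1 of 10 microglial and macrophage genes did, and the rest held none. The vasoactive genes were Npr1, a natriuretic peptide receptor, which ran from 135 to 208 in high IOP and from 60.5 to 102 in control arrays, and Nos3, the endothelial nitric oxide synthase, from 331 to 419 in high IOP and from 238 to 327 in control (limma adjusted p = 0.837 for both). Groups that did not overlap, as here, were found for 0.663% of all probe sets. The neuronal synthase gene Nos1 stood at 0.47, its other probe set at -0.42. Of 11 measured genes listed as neural crest partners of Edn3 and Ednrb, 4 were above 0 and 7 below. Whether these genes act with Edn3 and Ednrb in this tissue was not tested. Their median of -0.18 was -0.04 without high IOP replicate 1. Erbb3, a neuregulin receptor of glial precursors, stood at -0.41 (-0.22 without that array), the transcription factor gene Sox2 at -0.24 (-0.11 without it), and Mitf, the melanocyte transcription factor, at -0.18 (-0.06 without control replicate 1). Other probe sets of Erbb3 and Mitf stood at 0.02 and 0.04.

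Since the members varied between pools of the same group, they were set against each other and against scores of 6 cell types over the 10 arrays, with the brighter probe set of each gene. The 40 relations were tested by permutation (two-sided, 100000 resamples) and adjusted over the 40. Right eyes gave the high IOP pools and left eyes of the same mice the control pools, so both eyes of a mouse are among the arrays. Which pools share mice is unknown, so the arrays may not be independent. Edn3 followed the pigment score, which joins genes of melanocytes and of the retinal pigment epithelium, with Pearson's r of 0.871 (permutation p = 9.9e-04, adjusted p = 0.0396) and Spearman's rho of 0.867 (permutation p = 0.00223, adjusted p = 0.0446). Of the 13 listed pigment genes 11 were measured. Their summed signal ran from 15792 to 28401 in high IOP and from 10863 to 39717 in control pools. Without the 2 arrays farthest from the median score r was 0.796, and without control replicate 1 alone 0.759 (adjusted p = 0.204). The score ran from -0.40 to 0.61 in high IOP and from -0.79 to 1.25 in control pools, and with 5 arrays per group no r is given within a group. Control replicate 1 was the highest and control replicate 2 the lowest in both Edn3 and the score, so the extremes of the relation were control pools.

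Edn3 also followed the score of mural cells, the smooth muscle cells and pericytes of vessel walls, with r of 0.823 (permutation p = 0.00282, adjusted p = 0.0480) and rho of 0.891 (permutation p = 0.00102, adjusted p = 0.0408). All 12 mural genes were measured. Their summed signal ran from 27334 to 30367 in high IOP and from 24542 to 35820 in control pools. Here r was 0.663 without the 2 farthest arrays. The bright Ece1 probe set followed the endothelial score, with r of 0.834 (permutation p = 0.0036, adjusted p = 0.0480) and rho of 0.830 (permutation p = 0.00473, adjusted p = 0.0631), so only r passed. The 13 endothelial genes were all measured. They summed to between 21741 and 29540 in high IOP and between 18476 and 28277 in control pools. This r was 0.726 without the 2 farthest arrays and 0.707 (adjusted p = 0.230) when array medians were made equal. None of the 3 relations is a comparison of high IOP with control, and leaving out 1 array at a time ended the call for 6 of 10 arrays (Edn3 with pigment), 9 of 10 (Edn3 with mural) and 10 of 10 (Ece1 with endothelial). Control replicate 2 was the lowest array in all 3 scores (pigment -0.79, mural -0.48, endothelial -0.43). Control replicate 1 was at or next to the top of all 3. It was the highest in the pigment score (1.25). In the mural score it had 0.24, next after high IOP replicate 1 (0.35). In the endothelial score it had 0.39, next after high IOP replicate 3 (0.43). How far the scores followed each other was not tested, so the relations may share the same pool differences.

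**Figure D4:**
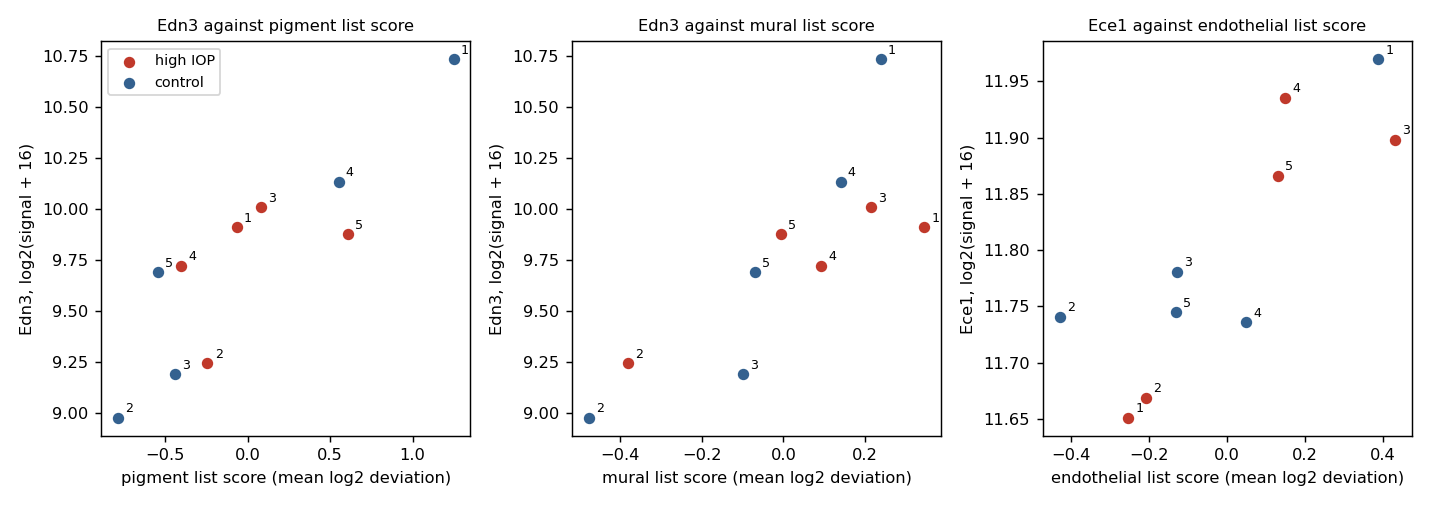
Each point is 1 array (red high IOP, blue control, with replicate number), with Edn3 against the pigment score (left), Edn3 against the mural score (middle) and the bright Ece1 probe set against the endothelial score (right), all on log2 scales. Edn3 had r = 0.871 with the pigment score, and control replicate 1 lay highest in both.

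The other relations did not pass. The strongest of them was Edn3 with the endothelial score, with r of 0.772 (permutation p = 0.00917, adjusted p = 0.0917) and rho of 0.648 (permutation p = 0.0485, adjusted p = 0.474). Ednrb, by its brighter probe set, had r of 0.591 with the astrocyte score (permutation p = 0.0703, adjusted p = 0.351), a score that ran only from -0.08 to 0.12 over the arrays, and r was 0.180 with equal array medians. Edn2 had r of 0.481 with the photoreceptor score (permutation adjusted p = 0.484), which was -0.22 without the 2 farthest arrays. Edn1 had r of 0.608 with the endothelial score (permutation adjusted p = 0.351). Edn3 and its receptor gene Ednrb had r of -0.02 (permutation adjusted p = 0.985), and 0.338 without control replicates 1 and 2. The highest r between members was 0.619, for Ednrb with Ece1 (permutation adjusted p = 0.351), and it was 0.118 without the 2 farthest arrays and 0.212 with equal array medians. High IOP replicates 1 and 2 were the lowest arrays for both genes, while control replicate 1 was the highest array for Ece1 and the lowest control array for Ednrb.

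Among the 9230 other genes of mean signal 100 or more, those most like each member over the 10 arrays were named by Pearson's r, as a description of the highest of many values. For Edn3 they were Ehd4, an endocytic trafficking gene (0.965), Slc45a2, a melanosome transporter gene that is also on the pigment list (0.964), and Clec11a, a secreted lectin gene (0.949). For Edn2 they were the DNA ligase gene Lig1 (0.948), the sugar transporter gene Slc50a1 (0.912) and the circadian output factor Dbp (0.907). For Edn1 they were the thymidine kinase gene Tk1 (0.874), Fam167b (0.859) and the interferon-induced gene Rsad2 (0.858). For Ednrb they were the cohesin loader gene Nipbl (0.948), Trp53rkb (0.938) and Snapin (0.938), and for Ece1 the actin regulator Vasp (0.905), the 14-3-3 gene Ywhah (0.899) and the antiviral deaminase gene Apobec3 (0.896).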

How the data were processed

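A table of 10 arrays was used, in which the authors deposited an intensity per probe set on a linear scale. Summarisation, background correction, normalization and genome build were not given in the sources used here. Per the labels' protocols, total RNA from the pools was amplified (Ovation) and labelled with biotin. After removal of 64 control probe sets, 20380 had 1 symbol in the platform annotation, 691 several and 1555 none. Values were put on the scale log2(signal + 16) and compared with limma 3.58.1 (R 4.3.3), high IOP minus control, without covariates, with Benjamini-Hochberg adjustment over 22626 probe sets and a threshold of 0.05. The test was checked on simulated data. Lists used the probe set with the highest mean per gene. List scores are mean log2 deviations. Relations used NumPy 2.4.6 and SciPy 1.17.1, and plots Matplotlib 3.10.9.

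Named were all member probe sets, the 3 genes with the smallest p per related list, and the 3 genes with the highest r to each member. The members and lists were chosen with earlier results of these data known. Whether equal replicate numbers pair the arrays is unknown from the labels. The correlation of their deviations from the group means lay between -0.076 and 0.178, and 2 of 5 numbers were closest to their own. With 5 pools per group such values cannot show whether the numbers pair. The arrays were not treated as paired, and a replicate block was run as an alternative. The limma p-values and intervals thus treat the arrays as independent, though both eyes of a mouse are among them. Alternatives were quantile normalization, equal medians, a pseudocount of 1, filters on dim probe sets, 1 probe set per gene, a trended robust variance, a replicate block, and leaving out each array.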

Additional observations from a re-analysis of the deposited data

Results flagged for a closer look

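In groups of 5 arrays, 76 were examined for a single array far from the rest by Dixon's test, and 7 stood out, where chance flags about 1 in 20. The genes examined were chosen by p or by likeness to a member, so the 7 are not independent of that choice or of each other. Among the endothelin probe sets it was Ece1 1455741_a_at in control, where replicate 1 read 3995 and the others 3395 to 3502. Among the genes chosen for following Ece1 the same array stood apart for Vasp, at 4268 (others 3259 to 3470.2), and for Ywhah, at 5662 (others 4547 to 4857). High IOP replicate 1 read 2435 for Ecel1 (others 835 to 1217) and 1512 for Ece2 (others 731 to 793). Control replicate 4 read 188 for Plcb1 (others 129 to 144), and high IOP replicate 4 read 8030.5 for Dbp (others 2944 to 4406).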

How the results depend on the processing

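Under 18 alternatives, 0 endothelin probe sets and 0 of all probe sets passed a limma adjusted p under 0.05. The count at an unadjusted p under 0.05, 1004, was 445 without the dimmest 50% of probe sets and 495 with 1 probe set per gene, both of which test fewer probe sets, and ran from 739 (without control replicate 2) to 2017 (without high IOP replicate 3). Endothelin probe sets at that threshold numbered 0 to 1 when an array was left out, the 1 being Ece1 1434177_at without control replicate 1. With the replicate block, 0 were called and 886 had an unadjusted p under 0.05, and no endothelin call changed. Of 135 combinations of an endothelin probe set with an alternative, 24 changed sign, each by leaving out 1 array. The log2 differences then ran from -0.13 to 0.060 for Edn1, from -0.17 to 0.049 for Edn2, from -0.18 to 0.25 and from -0.17 to 0.24 for Edn3, from -0.14 to 0.0043 for Ednrb 1423594_a_at, and from -0.024 to 0.053 for Ece1 1455741_a_at. The median of the processing list, 0.04, was 0.28 without the dimmest 25% and 0.27 without the dimmest 50% of probe sets, which leave fewer of its genes. Leaving out 1 array moved it from -0.017 to 0.187, that of the transcription factors from -0.068 to 0.040 and that of the vasoactive genes from -0.012 to 0.127, all with a change of sign. With equal array medians r was 0.864 (adjusted p = 0.0520) for Edn3 with the pigment score, 0.789 for Edn3 with the mural score and 0.707 for Ece1 with the endothelial score, and with quantile normalization the mural r was 0.801 (adjusted p = 0.0743); the cause was not tested. Leaving out 1 array gave r from 0.759 to 0.902 for pigment, from 0.744 to 0.874 for mural and from 0.777 to 0.888 for endothelial. Of the likeness values, with equal medians r was 0.782 for Ece1 with Vasp, 0.703 with Ywhah and 0.641 with Apobec3, and 0.716 for Edn2 with Slc50a1. The number of arrays limits the precision, and the labels do not say which pools came from the same mice.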
